A study of Mus musculus with 10 samples.

Results

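Voltage-gated sodium channels, voltage-gated calcium channels and hyperpolarization-activated cyclic nucleotide-gated (HCN) channels are the pore proteins and auxiliary subunits that make nerve and muscle cells excitable. Their transcripts were examined in whole mouse embryos that lacked *Wwc2*, a component of the Hippo pathway. Members were taken by symbol: the *Scn* genes with a number and an a or b, every *Cacna*, *Cacnb* and *Cacng* gene, and the numbered *Hcn* genes, each with a mean normalized count above 0. This gave 43 genes of the 20665 with any count, out of 24302 genes listed, and 40 of the 43 are described here as the members. By the tissue in which each is best known, 21 were classed as neuronal, 5 as sensory, 3 as cardiac, 5 as skeletal and 6 as shared between tissues.

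RNA was sequenced from C57BL/6 embryos at embryonic day (E) 11.5, with 3 embryos wildtype, 3 heterozygous and 4 homozygous for the *Wwc2* deletion (KO). The floxed *Wwc2* allele was removed with a *Zp3*-driven Cre recombinase that is active in growing oocytes, so the deletion is present from the start of development. Each library is a mixture of brain, ganglia, heart, muscle and all other tissue, and fewer cells of a type cannot be told apart from less RNA per cell. The authors describe KO embryos as growth retarded and less developed both at earlier stages and at E11.5. The embryos degenerate after E11.5. The part of such a delay in the values below was not tested. The values come from the deposited results of KO versus wildtype and of heterozygous versus wildtype embryos, both from one fit over the 10 embryos. No value per embryo was used here, so the spread is given by standard errors (SE). The mean normalized counts summed to 2.56e+07 per embryo. The log2 fold change of *Wwc2* itself was 0.30 in the KO (SE 0.17, adjusted p = 0.176), which counts reads over the whole gene and does not check the genotypes.

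A voltage-gated sodium channel is a large alpha subunit that forms the pore, joined by small beta subunits, and it carries the upstroke of the action potential. A voltage-gated calcium channel has a pore-forming alpha1 subunit with beta and alpha2delta partners that bring it to the membrane. The gamma genes encode a skeletal muscle channel subunit and its relatives, most of which are better known as partners of AMPA-type glutamate receptors in neurons. HCN channels open on hyperpolarization and carry the pacemaker current of the sinoatrial node and of many neurons. At midgestation the heart already beats, the first neurons of spinal cord and ganglia extend axons, and skeletal muscle is at the stage of myoblasts and early myotubes.

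In KO versus wildtype embryos, 19 of the 39 members with an adjusted p passed the threshold of 0.05 in the authors' deposited table, 18 lower and 1 higher. Over all 17477 genes tested in this way, 25.8% passed, 10.2% lower and 15.6% higher. The median log2 fold change of the members was -0.72, against 0.05 over all genes tested. The log2 fold change was negative in 36 of the 40. By class, 12 of 21 neuronal members fell and 1 rose, while 2 of 5 sensory, 1 of 5 skeletal, 0 of 3 cardiac and 3 of 6 shared members fell. The neuronal member that rose, *Hcn2*, is also a channel of the heart and could as well be classed as shared. No cardiac member had an unadjusted p under 0.05 (DESeq2, in the same table). Class medians were -0.86 for neuronal, -0.91 for sensory, -0.46 for skeletal, -0.51 for shared and -0.26 for cardiac members on the log2 scale. No test compared one class with another. When a t distribution with 7 degrees of freedom took the place of the normal one, 0 of the members and 0 of all 17477 genes passed, and 19 members had an unadjusted p under 0.05.

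**Figure D1:**
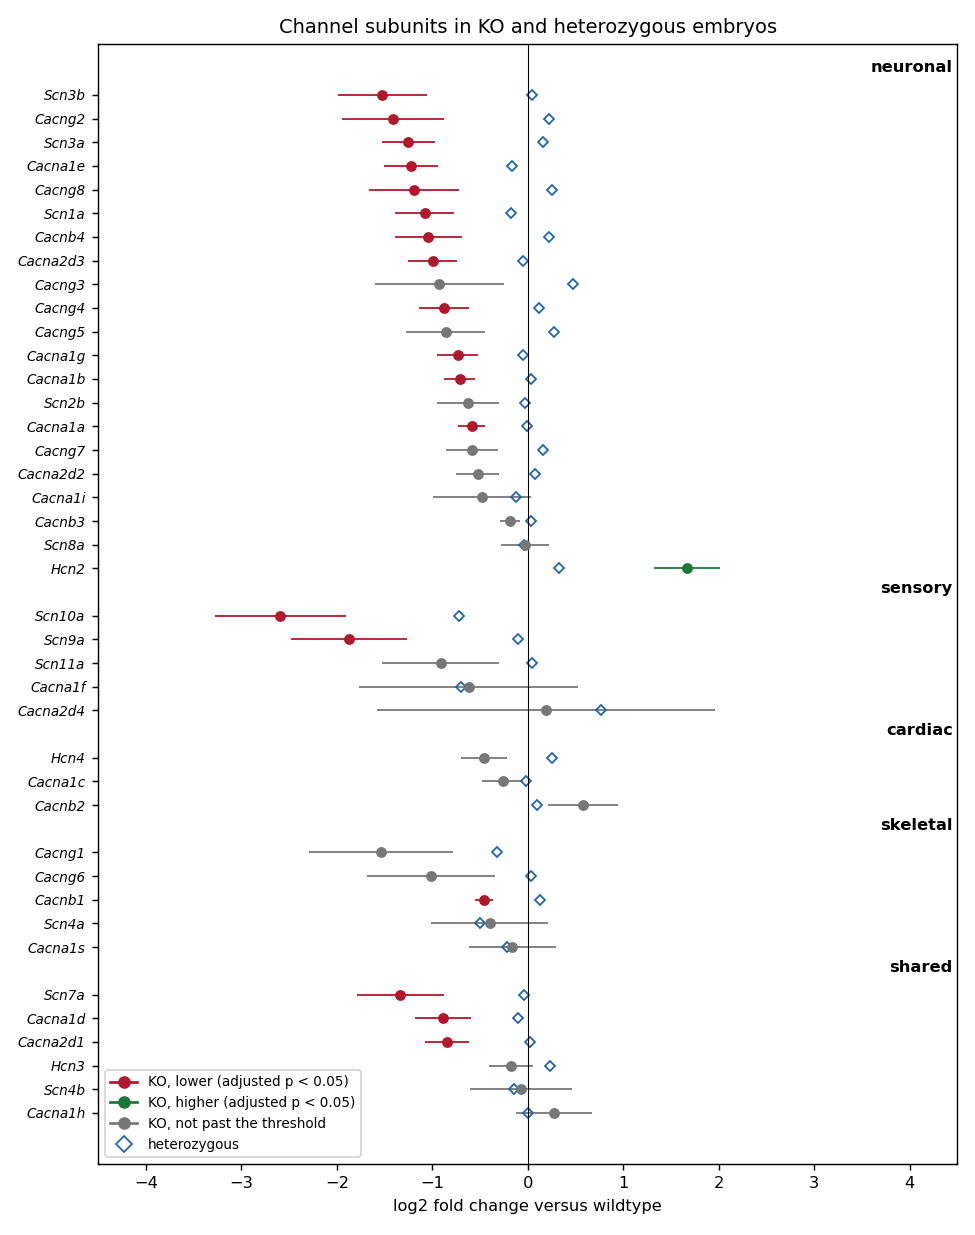
Log2 fold change versus wildtype for the 40 channel subunits, by tissue class. Circles with bars are KO embryos (n = 4) with the standard error, in red for the 18 members that fell, green for *Hcn2*, which rose, and grey for the rest; blue diamonds are heterozygous embryos (n = 3), which lie between -0.72 and 0.76 for all members.

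In heterozygous embryos no member was called. Here 0 of the 40 members passed the threshold in heterozygous versus wildtype embryos (DESeq2, in the authors' deposited table), 0 had an unadjusted p under 0.05, and the median log2 fold change was 0.03. Over all genes 0.00968% passed, which is 2 of 20653, so few calls of any kind were made in this comparison. A comparison of KO with heterozygous embryos was derived from the 2 deposited ones. It called 22 of the 40 members lower and 1 higher, where 8.13% of all 20653 genes were called lower, 13.0% higher and 21.2% in either direction. The median over the members was -0.75. With the t distribution 0 members passed here and 23 had an unadjusted p under 0.05. With a standard error that adds both deposited variances 1 passed. That standard error is too large, because it keeps the variance of the shared wildtype embryos, which cancel from this difference. Both KO comparisons use the same 4 KO embryos and so are not independent of each other.

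The sequence upstream of the start of transcription is shown for the 2 members with the largest falls and for the only one that rose, since these carry the contrast between the members. Of the 40 members, 31 had at least 1 window in RefSeq (GRCm38.p6), 41 windows in all. Each run below holds the 250 bases before the start, on the strand of the gene, with every CG in capitals. *Scn10a* is at chr9:119719033-119719282 (minus strand), *Scn9a* at chr2:66634963-66635212 (minus strand) and *Hcn2* at chr10:79716384-79716633 (plus strand).
*Scn10a*: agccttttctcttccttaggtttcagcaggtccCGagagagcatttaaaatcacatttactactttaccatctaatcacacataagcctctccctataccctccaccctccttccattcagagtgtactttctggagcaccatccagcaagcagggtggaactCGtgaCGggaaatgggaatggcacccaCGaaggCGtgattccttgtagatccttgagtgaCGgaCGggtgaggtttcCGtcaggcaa
*Scn9a*: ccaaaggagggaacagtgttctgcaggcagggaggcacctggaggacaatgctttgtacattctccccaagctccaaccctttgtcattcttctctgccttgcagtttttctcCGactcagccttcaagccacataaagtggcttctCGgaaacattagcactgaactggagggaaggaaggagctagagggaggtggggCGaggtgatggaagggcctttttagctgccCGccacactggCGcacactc
*Hcn2*: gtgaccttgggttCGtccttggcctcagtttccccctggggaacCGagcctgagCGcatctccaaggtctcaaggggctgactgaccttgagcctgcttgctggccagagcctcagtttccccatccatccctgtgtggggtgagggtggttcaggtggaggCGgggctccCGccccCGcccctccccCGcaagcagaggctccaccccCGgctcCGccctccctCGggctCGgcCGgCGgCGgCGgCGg

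The *Hcn2* window held 16 CG dinucleotides and was 70.4% G and C. The *Scn10a* window held 8 and was 49.6% G and C, and that of *Scn9a* held 5 and was 54.4%. Among other members that fell, windows held from 0 CG (*Cacng8*) to 50 (*Cacna1d*). The median over the 32851 windows of all genes was 6 CG and 52.4%, and over the 41 member windows it was 9 and 58.0%. Windows were searched on both strands for CAGCACC and GGACAGC, the left and right parts of the element bound by the repressor REST, which silences many neuronal genes outside neurons. CAGCACC was in 0 of the 41 member windows and in 5.73% of all windows, and GGACAGC in 1 (*Cacnb1*) and in 5.28% of all. The E-box CAGCTG, a core bound by proneural and muscle factors, was in 26.8% of the member windows and 13.0% of all, among them those of *Cacna1b*, *Cacna1d*, *Cacna2d3*, *Cacnb4*, *Cacng2* and *Scn7a*, which fell, and of *Cacna1s*, *Cacnb2*, *Cacng3* and *Scn11a*, which did not pass the threshold. GGGCGG, the core bound by Sp factors, was in 41.5% against 32.7% and was found upstream of *Hcn2* but of neither *Scn9a* nor *Scn10a*. It was also upstream of *Cacna1b*, *Cacna1d*, *Cacna2d1*, *Cacna2d3*, *Cacnb1*, *Cacnb4* and *Scn7a*, which fell, and of members that did not pass the threshold. ACGTG, a core bound by hypoxia-inducible factors, was in 7.32% against 16.6%. None of these motifs contains another. The counts describe letters in short windows and were not tested.

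Among the sodium channel alpha subunits, 5 of 8 fell. In what follows, the mean normalized counts of wildtype, heterozygous and KO embryos are derived values with derived standard errors (n = 3, 3 and 4). These standard errors rest on a single dispersion per gene, solved from the KO versus wildtype standard error. They are not the spread seen within each genotype. *Scn3a*, the main sodium channel of the embryonic brain, stood at 641 ± 91.7, 716 ± 102 and 269 ± 33.9. Its log2 fold change in the KO was -1.25 (SE 0.28, adjusted p = 0.000291). The wildtype and heterozygous means were within 1 standard error of each other, and the KO mean was 2.38 times lower than the wildtype mean. *Scn1a*, the channel of many inhibitory neurons, stood at 83.7 ± 13.1, 74.3 ± 11.8 and 39.6 ± 5.84. It fell by 1.08 on the log2 scale (SE 0.31, adjusted p = 0.00648). *Scn8a*, the channel of the axon initial segment, behaved otherwise. Its means were 529.5 ± 69.4, 516 ± 67.7 and 518 ± 58.8, a log2 fold change of -0.03 with a 95% interval from -0.52 to 0.46.

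Of the 3 sodium channels classed as sensory, *Scn10a* and *Scn9a* fell and *Scn11a* did not pass the threshold. *Scn10a*, the tetrodotoxin-resistant channel of nociceptors, stood at 70.4 ± 24.3 in wildtype, 42.6 ± 14.9 in heterozygous and 11.7 ± 3.83 in the KO. It fell by 2.59 on the log2 scale (SE 0.69, adjusted p = 0.00313), the largest fall of any member. *Scn9a*, the channel whose loss in humans abolishes pain, stood at 406 ± 128, 377 ± 119 and 111 ± 30.6. It fell by 1.87 (SE 0.61, adjusted p = 0.0150). Both also varied most between embryos among the called members, with a coefficient of variation implied by the deposited standard error of 58.6% for *Scn10a* and 54.5% for *Scn9a*, against a median of 29.6% over the members. The heterozygous mean of *Scn10a* lay between the other two, with a log2 fold change versus wildtype of -0.72 and a 95% interval from -2.10 to 0.65. *Scn11a*, the third channel of nociceptors, had a log2 fold change of -0.91 with an interval from -2.11 to 0.29 (adjusted p = 0.251). Its means, 25.7 ± 8.07, 26.5 ± 8.31 and 13.7 ± 3.93, were low in every genotype.

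*Scn7a*, an atypical sodium channel of glia and sensory neurons, fell from 50.3 ± 11.6 in wildtype and 49.1 ± 11.3 in heterozygous embryos to 20.0 ± 4.34 in the KO. The log2 fold change was -1.33 (SE 0.46, adjusted p = 0.0215). *Scn4a*, the sodium channel of skeletal muscle, was near the lower end at 20.5 ± 6.48, 14.5 ± 4.74 and 15.5 ± 4.37, with a log2 fold change of -0.40 and an interval from -1.60 to 0.80.

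*Scn2a1*, the older symbol of *Scn2a*, is outside the symbol pattern and so no member, but it is the other main sodium channel of the young brain. It fell from 183 ± 29.0 in wildtype and 208 ± 32.8 in heterozygous embryos to 76.3 ± 11 in the KO. The log2 fold change was -1.26 (SE 0.31, adjusted p = 0.00130).

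Many sodium channel genes are neighbours in the genome. On chromosome 2, each within 1 Mb of the next, lie *Scn3a* (65457118 to 65567627), *Scn1a* (66270778 to 66440840), *Scn9a* (66480080 to 66634962) and *Scn7a* (66673425 to 66784914) in GRCm38, and all 4 fell. On chromosome 9 lie *Scn10a* (119608456 to 119719322) and *Scn11a* (119753759 to 119825456). Here *Scn10a* fell, at -2.59 on the log2 scale, and *Scn11a*, at -0.91, did not pass the threshold.

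To compare genes with each other, counts were divided by the length of the exons. The 8 sodium channel alpha members together came to 147 normalized counts per kb of exon in wildtype, 145 in heterozygous and 75.4 in the KO. In wildtype embryos *Scn3a* was highest at 51.4 ± 7.36 per kb. *Scn8a* at 33.6 ± 4.40 and *Scn9a* at 31.8 ± 10 followed, and the ranges of 1 SE of these overlapped. In KO embryos *Scn8a* at 32.8 ± 3.73 was above *Scn3a* at 21.6 ± 2.72. The share of *Scn3a* in the counts per kb of these 8 members went from 34.9% in wildtype to 28.7% in KO embryos and that of the sensory channels from 30.5% to 16.5%. The share of *Scn8a*, whose level per kb was near that of the wildtype, went from 22.8% to 43.6%. These shares add to 100% by construction and were not tested.

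**Figure D2:**
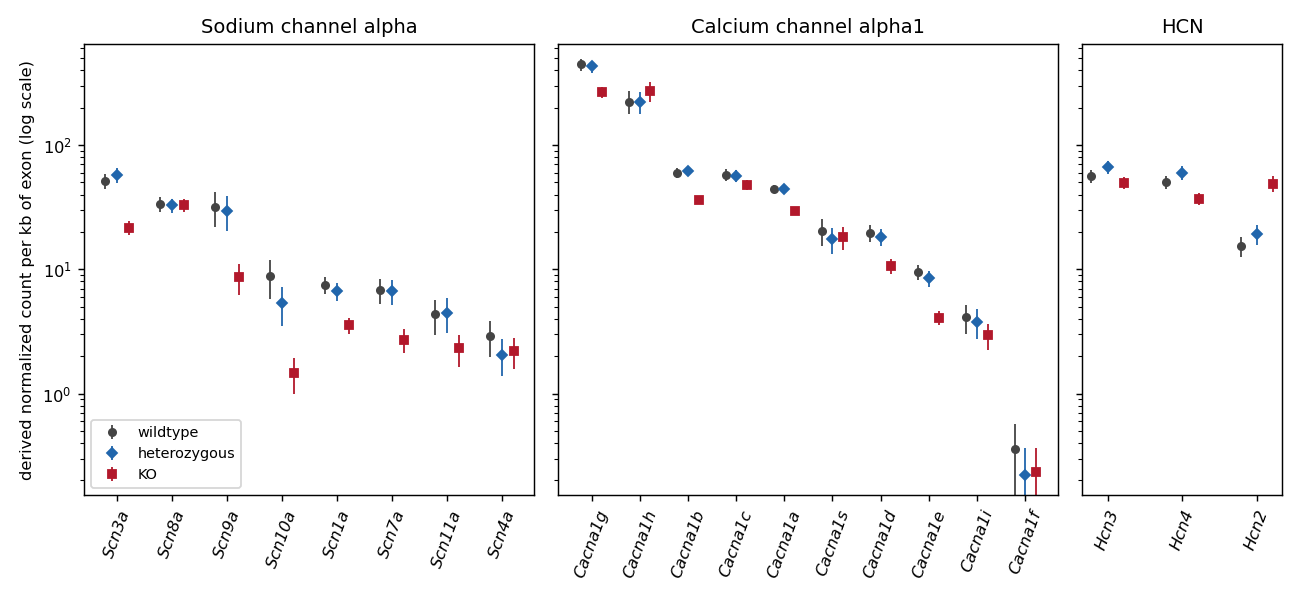
Derived normalized counts per kb of exon (log axis) of the pore-forming subunits in wildtype (n = 3), heterozygous (n = 3) and KO (n = 4) embryos, with standard errors, ordered by the wildtype level. The standard errors are derived from a single dispersion per gene. *Scn3a*, *Scn9a* and *Scn10a* are lower in the KO, *Scn8a* lies at one level in all genotypes, and *Hcn2* goes from 15.4 per kb in wildtype to 49.0 in KO embryos.

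Of the sodium channel beta subunits, 1 of 3 fell. *Scn3b*, the beta subunit of embryonic neurons, stood at 598 ± 145, 617 ± 149 and 208 ± 43.9. Its log2 fold change was -1.52 (SE 0.46, adjusted p = 0.00996), the largest fall of any neuronal member. *Scn2b*, a neuronal beta subunit on chromosome 9, had means of 339 ± 57.5, 332 ± 56.4 and 219.9 ± 32.6 and a log2 fold change of -0.62 (interval from -1.26 to 0.01, adjusted p = 0.131). *Scn4b*, shared by nerve and heart and less than 1 Mb from *Scn2b*, had a log2 fold change of -0.07 (interval from -1.12 to 0.97).

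Among the 10 calcium channel alpha1 subunits, 5 fell and none rose. *Cacna1g*, a low-threshold T-type channel, had the highest count of any member, at 4509.8 ± 509 in wildtype, 4354 ± 492 in heterozygous and 2710.3 ± 266 in the KO. It fell by 0.73 on the log2 scale (SE 0.22, adjusted p = 0.00763). *Cacna1h*, the second T-type channel and the shared member with the highest count, stood at 2179 ± 456, 2176 ± 456 and 2638 ± 478. Its log2 fold change of 0.28 had an interval from -0.51 to 1.06, so that a rise and a fall of moderate size are both within it. *Cacna1i*, the third T-type channel, was low in every genotype, with means of 40.5 ± 10.7, 37.1 ± 9.85 and 29.0 ± 6.78 and a log2 fold change of -0.48 (adjusted p = 0.484).

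The 3 channels that release transmitter or shape firing at synapses all fell. *Cacna1b*, the N-type channel, stood at 594 ± 50.8, 609 ± 52.0 and 362 ± 27.5, with a log2 fold change of -0.71 (SE 0.16, adjusted p = 0.000611). *Cacna1a*, the P/Q-type channel, stood at 508 ± 37.2, 504 ± 36.9 and 338 ± 22.1, with -0.59 (SE 0.14, adjusted p = 0.00108). *Cacna1e*, the R-type channel, stood at 240.3 ± 35.0, 215 ± 31.4 and 103 ± 13.6, with -1.22 (SE 0.28, adjusted p = 0.000647). For each of these the wildtype and heterozygous means were within 1 standard error of each other.

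The L-type channels were divided. *Cacna1d*, the L-type channel of neurons, endocrine cells and the sinoatrial node, went from 248 ± 37.3 and 231 ± 34.8 to 134 ± 17.9. It fell by 0.89 on the log2 scale (SE 0.29, adjusted p = 0.0162). Of its exon bases, 4.67% are shared with *Chdh* on the opposite strand, whose log2 fold change was 2.69 (adjusted p = 0.116), and whether the counting used strand is not given in the sources used here. *Cacna1c*, the L-type channel of the heart and the cardiac member with the highest count, stood at 1217 ± 134, 1198 ± 132 and 1013 ± 97.1. Its log2 fold change was -0.26 (SE 0.21, adjusted p = 0.339, interval from -0.68 to 0.15). *Cacna1s*, the voltage sensor of skeletal muscle, stood at 133 ± 31.8, 115 ± 27.4 and 119 ± 24.7, with a log2 fold change of -0.16 (interval from -1.06 to 0.73). Of its exon bases, 20.0% overlap the antisense gene *Gm37759*. *Cacna1f*, the L-type channel of photoreceptors, had means of only 3.28, 2.02 and 2.14, too few for a comparison at this depth. Its interval ran from -2.87 to 1.63.

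Per kb of exon, the alpha1 members came to 884 in wildtype, 863 in heterozygous and 688 in the KO. *Cacna1g* and *Cacna1h* made up most of this. In wildtype embryos *Cacna1g* at 445 ± 50.2 per kb was above *Cacna1h* at 223 ± 46.7. In KO embryos they stood at 267 ± 26.2 and 270.2 ± 49.0 and did not differ beyond their standard errors. The share of *Cacna1g* in the family went from 50.3% to 38.9% and that of *Cacna1h* from 25.3% to 39.3%.

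**Figure D3:**
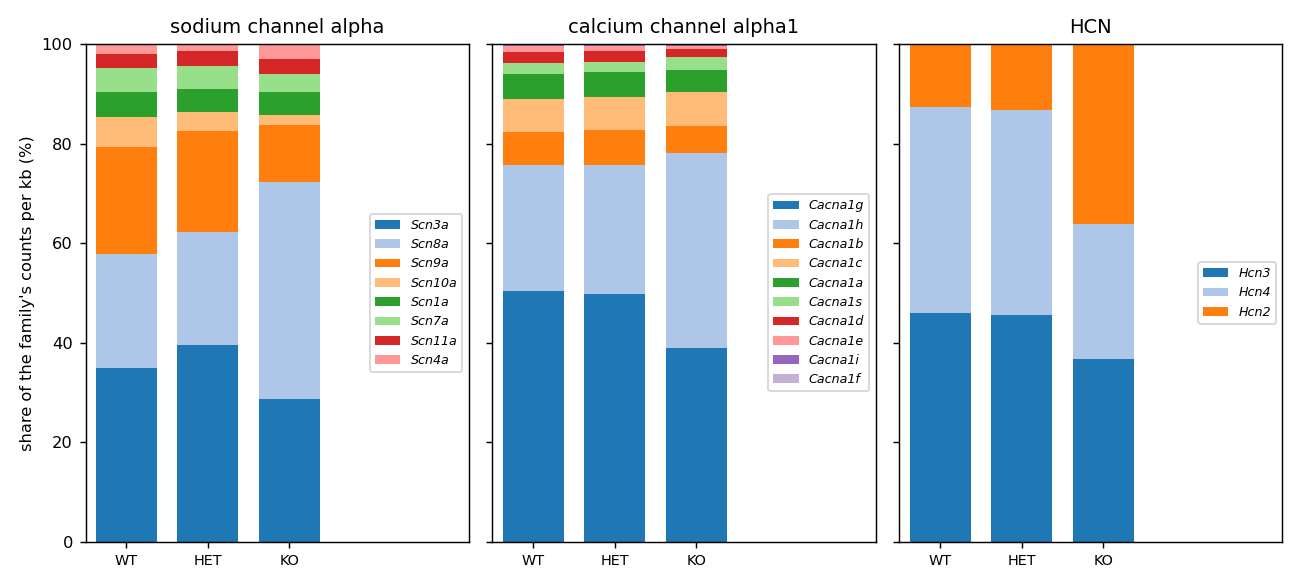
Share of each pore-forming subunit in the normalized counts per kb of exon of the members of its family (%), for wildtype (WT), heterozygous (HET) and KO embryos, from derived genotype means with no error bars. WT and HET bars are alike, while in KO embryos *Scn8a* takes 43.6% of the sodium channel alpha counts, *Cacna1h* 39.3% of the alpha1 counts and *Hcn2* 36.2% of the HCN counts.

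Of the alpha2delta subunits, 2 of 4 fell. *Cacna2d1*, a receptor of gabapentin found in muscle and nerve, went from 1340.2 ± 159 in wildtype and 1366 ± 162 in heterozygous embryos to 746 ± 77.2 in the KO. The log2 fold change was -0.85 (SE 0.23, adjusted p = 0.00361). *Cacna2d3*, a neuronal form, went from 295 ± 39.3 and 286 ± 38.1 to 148 ± 17.6, a log2 fold change of -0.99 (SE 0.26, adjusted p = 0.00247). *Cacna2d3* lies beside *Cacna1d* on chromosome 14. *Cacna2d2*, with means of 620.0 ± 72.6, 653 ± 76.3 and 431 ± 44.1, missed the threshold against wildtype with a log2 fold change of -0.52 (SE 0.22, adjusted p = 0.0653). Against heterozygous embryos it passed, at -0.60 (SE 0.22, adjusted p = 0.0401). *Cacna2d4*, a form of the retina, had a mean count near 1 in every genotype and no adjusted p.

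Of the calcium channel beta subunits, 2 of 4 fell. *Cacnb1*, the beta subunit of the skeletal muscle channel and the skeletal member with the highest count, stood at 771 ± 38.9, 842 ± 42.2 and 561 ± 25.3. It fell by 0.46 on the log2 scale (SE 0.10, adjusted p = 0.000176). Its implied variation between embryos, 7.97%, was the lowest of all members, and it was the only skeletal member to pass. In wildtype embryos it stood at 170 per kb of exon, against 20.4 for *Cacna1s* and 33.3 for *Cacng1* of the same muscle channel. The tissue that its counts came from was not measured, so its fall need not be one of skeletal muscle. *Cacnb4*, a neuronal beta subunit, went from 168 ± 30.2 and 195 ± 35.0 to 81.6 ± 13.1, with a log2 fold change of -1.04 (SE 0.35, adjusted p = 0.0187). Of its exon bases, 16.0% overlap *A430018G15Rik* on the opposite strand. *Cacnb3*, the neuronal beta subunit with the highest level per kb of any member, stood at 2582 ± 141, 2635 ± 144 and 2277 ± 108. Its log2 fold change of -0.18 had an interval from -0.39 to 0.02 (adjusted p = 0.175). *Cacnb2*, the beta subunit of the heart, stood at 125 ± 24.4, 134 ± 26.1 and 187 ± 31.2, with a log2 fold change of 0.58 (interval from -0.15 to 1.30, adjusted p = 0.223).

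All 8 gamma genes had a negative log2 fold change and 3 passed. *Cacng4*, a neuronal glutamate receptor partner, went from 850.4 ± 114 and 921 ± 124 to 463 ± 54.3, a log2 fold change of -0.88 (SE 0.26, adjusted p = 0.00757). *Cacng2*, stargazin, went from 71.8 ± 19.5 and 83.5 ± 22.6 to 27.0 ± 6.68, at -1.41 (SE 0.53, adjusted p = 0.0362). *Cacng8* went from 86.5 ± 20.8 and 103 ± 24.7 to 37.8 ± 8.21, at -1.19 (SE 0.47, adjusted p = 0.0444), and it is the call nearest the threshold. When p-values were adjusted over every gene with one, its adjusted p was 0.0525. Of the exon bases of *Cacng8*, 3.88% hold a microRNA gene on the same strand, and 5.86% of those of *Cacng2* overlap an antisense gene.

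*Cacng7*, the gamma gene with the highest count, missed the threshold against wildtype, with means of 1034 ± 147, 1155 ± 164 and 690.2 ± 85.3 and a log2 fold change of -0.58 (SE 0.27, adjusted p = 0.0915). *Cacng5* did so too, at 40.6 ± 8.46, 49.1 ± 10.1 and 22.4 ± 4.34 and -0.86 (SE 0.41, adjusted p = 0.0991). Against heterozygous embryos both passed, *Cacng7* at -0.74 (SE 0.27, adjusted p = 0.0355) and *Cacng5* at -1.13 (SE 0.41, adjusted p = 0.0320). *Cacng3*, a relative of stargazin, had a log2 fold change of -0.93 (interval from -2.26 to 0.40) at means of 15.4 ± 5.30, 21.5 ± 7.18 and 8.12 ± 2.61. *Cacng1*, the gamma subunit of the skeletal muscle calcium channel, had the lowest log2 fold change of the members that did not pass, -1.53 with an interval from -3.01 to -0.06 (adjusted p = 0.108). Its means were 41.6 ± 16.1, 33.4 ± 13.0 and 14.4 ± 5.04, and its implied variation between embryos was 64.9%. *Cacng6*, a relative of *Cacng1*, stood at 20.0 ± 6.77, 20.4 ± 6.91 and 9.89 ± 3.11, with -1.01 (interval from -2.32 to 0.30). Of the 8 gamma genes 6 sit in 2 clusters of 3, *Cacng1*, *Cacng4* and *Cacng5* on chromosome 11 and *Cacng7*, *Cacng8* and *Cacng6* on chromosome 7, and in each cluster 1 gene passed against wildtype. *Cacng2* and *Cacng3* lie in neither.

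Of the HCN channels, 1 of 3 rose and none fell against wildtype embryos. *Hcn2*, an HCN channel of brain and heart that was classed as neuronal, stood at 49.2 ± 9.17 in wildtype, 61.5 ± 11.2 in heterozygous and 157 ± 23.6 in the KO. It was 3.19 times higher in KO than in wildtype embryos, a log2 fold change of 1.67 (SE 0.35, adjusted p = 0.000107). Against heterozygous embryos it rose by 1.35 (SE 0.34, adjusted p = 0.00219). It was the only member that rose in either comparison, and no exon of another gene overlaps its exons. *Hcn4*, the pacemaker channel of the sinoatrial node, stood at 309 ± 39.2, 367 ± 46.4 and 225 ± 25.0. It missed the threshold against wildtype at -0.46 (SE 0.24, adjusted p = 0.142) and passed against heterozygous embryos at -0.71 (SE 0.24, adjusted p = 0.0247). *Hcn3* stood at 233 ± 28.3, 275 ± 33.1 and 207 ± 21.9, with -0.18 (interval from -0.63 to 0.28). Of its exon bases, 17.1% overlap the erythroid pyruvate kinase gene *Pklr* on the opposite strand.

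The 3 HCN members together came to 122 normalized counts per kb of exon in wildtype, 145 in heterozygous and 136 in the KO. *Hcn3* at 56.2 ± 6.82 and *Hcn4* at 50.4 ± 6.40 were above *Hcn2* at 15.4 ± 2.87 in wildtype embryos. In KO embryos *Hcn3* at 49.8 ± 5.26 and *Hcn2* at 49.0 ± 7.37 did not differ beyond their standard errors. The share of *Hcn2* in these 3 went from 12.6% to 36.2%, that of *Hcn4* from 41.3% to 27.1% and that of *Hcn3* from 46.0% to 36.7%.

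Channel partners that the symbol pattern leaves out were counted from a list of accessory and anchoring genes. Of the 38 with an adjusted p, 17 fell and 1 rose in KO versus wildtype embryos, with a median of -0.48 over the 39 in the tables. Over all genes tested, 10.2% were called lower and 15.6% higher. The sodium leak channel complex fell as a whole, with all 4 genes called: *Nalcn*, the pore that sets the resting potential, at -1.33, *Unc79* at -1.19, *Fam155a* at -1.13 and *Unc80* at -0.98 on the log2 scale. Of 12 sodium channel partners, 7 fell, among them *Sptbn4*, the spectrin of the axon initial segment, at -1.30, and 1 rose. That one was *Pkp2*, a desmosome protein of heart and epithelia, at 2.90 (adjusted p = 3.22e-08). Of 18 calcium channel partners with an adjusted p, 6 fell. These included *Jph4* at -1.78 and *Jph3* at -1.40, the neuronal junctophilins, *Rims1* at -1.31, a scaffold of the presynaptic active zone, and *Stac3* at -1.02, a component of skeletal excitation-contraction coupling. None of the 4 HCN channel partners passed (DESeq2, in the authors' deposited table), and 1 had an unadjusted p under 0.05.

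Markers of the tissues that carry these channels were counted in the same way, to be read beside the 10.2% of all genes called lower and 15.6% called higher. Of 14 markers of postmitotic neurons 13 fell, with a median of -1.0, and their summed level went from 57330.0 normalized counts in wildtype and 63128 in heterozygous embryos to 29351 in the KO. *Dcx*, a microtubule protein of young neurons, fell by 1.53 on the log2 scale and *Map2*, a dendrite protein, by 1.10. Of 12 markers of sensory neurons 6 fell, with a median of -0.60 and sums of 7554, 7260 and 5282. Of 10 markers of neural progenitors 0 passed (DESeq2, in the authors' deposited table), and 1 had an unadjusted p under 0.05. Their median was -0.18, with 6 negative and 4 positive log2 fold changes, and their sums were 30728, 35177 and 23319. The summed level of progenitor markers was thus also lowest in the KO, and 1 of the 10 fell against heterozygous embryos. The neuronal members summed to 13897, 14139 and 9140.2, and the part of neuron number in their fall was not tested.

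Of 14 cardiomyocyte markers 4 rose, none fell and 10 did not pass, with a median of 0.65 and sums of 17118, 18026 and 32936. The 4 that rose are 28.6% of them, beside 15.6% of all genes called higher. The 4 were *Nppa* at 2.19, *Myh7* at 1.61, *Nkx2-5* at 1.52 and *Myl7* at 1.20. Against heterozygous embryos 2 of the 14 rose, which is 14.3% beside the 13.0% of all genes called higher. The 3 cardiac members, *Cacna1c*, *Cacnb2* and *Hcn4*, summed to 1651, 1700.2 and 1426. Of 5 pacemaker cell markers 2 fell and 1 rose. *Shox2*, which keeps the sinoatrial node distinct from working muscle, fell by 1.12. The other marker that fell is also counted among the sensory neuron markers that fell. Where in the whole embryo these pacemaker markers are expressed was not measured. Of 15 skeletal muscle markers 7 fell and 8 did not pass, with a median of -1.03 and sums of 12212, 10151 and 6928. *Myod1*, a master regulator of myoblasts, fell by 1.95, and *Chrna1*, the muscle acetylcholine receptor subunit, by 1.99. Against heterozygous embryos 3 of the 15 fell. The 5 skeletal members summed to 986, 1025 and 719.7, of which *Cacnb1* alone made up 771, 842 and 561. Of 7 retina markers with an adjusted p 0 passed (DESeq2, in the authors' deposited table), and 0 had an unadjusted p under 0.05.

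Trophoblast markers moved most. In the KO 10 of the 11 listed rose, with a median of 4.80, and their summed level went from 682 in wildtype and 1398 in heterozygous embryos to 24773 in KO embryos. Their implied variation between embryos was large, from 45.9% to 150.6% with a median of 112.5%. Whether every KO embryo shared the rise cannot be told without values per embryo. *Tpbpa*, of the spongiotrophoblast, rose by 6.33 on the log2 scale. Their part in the rise of *Hcn2* or in the falls of the other members was not tested. When each genotype was scaled to its summed counts, which moves every gene down by 0.25 on the log2 scale in KO versus wildtype embryos, *Hcn2* still rose, at 1.43, and the 18 falls were larger.

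**Figure D4:**
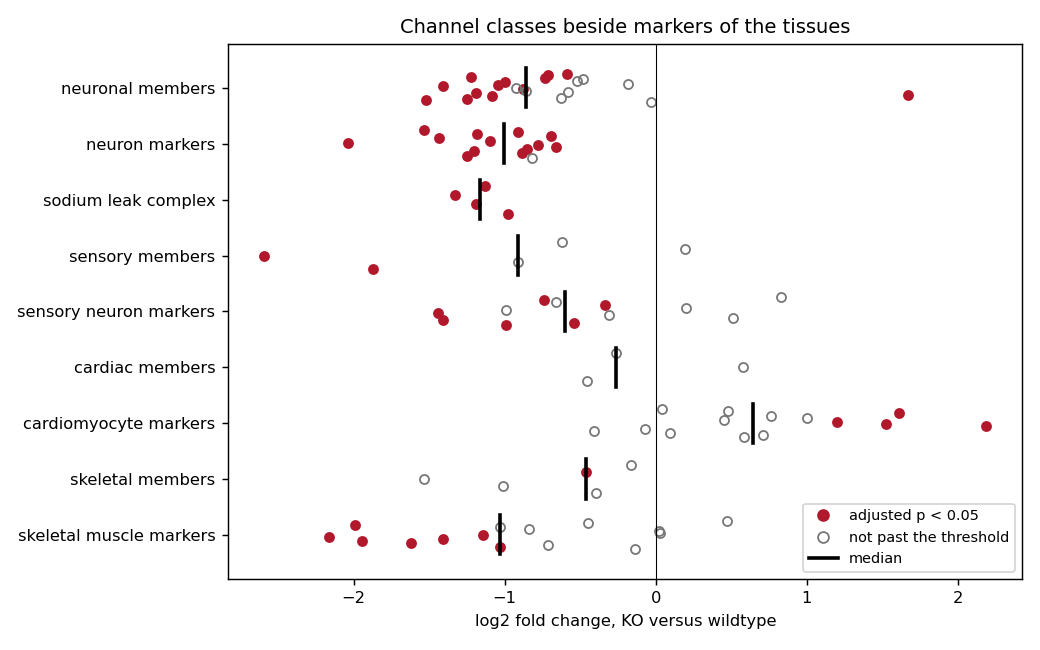
Log2 fold change in KO (n = 4) versus wildtype (n = 3) embryos of the neuronal, sensory, cardiac and skeletal members, each above the markers of its tissue, with the sodium leak complex. Each circle is a gene, filled where the adjusted p is under 0.05, and black bars are medians; the neuronal members and neuron markers have medians of -0.86 and -1.0, the cardiac members and cardiomyocyte markers -0.26 and 0.65.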

How the data were processed

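Poly(A) RNA of 10 whole mouse embryos (3 wildtype, 3 heterozygous, 4 KO; E11.5) was sequenced. Per the labels, the authors trimmed reads with Trimmomatic (0.33), aligned them with HISAT2 to mm10, counted them per gene with HTSeq and tested them with DESeq2. The deposited tables hold, for KO versus wildtype and heterozygous versus wildtype, a mean normalized count signal, a log2 fold change with its standard error, a Wald statistic (a score) and a p-value with its adjusted form; these values of the authors' own comparisons are the measurements used here. Genotype means were derived from the mean and both fold changes. A dispersion was solved from the KO standard error, and from it KO was compared with heterozygous embryos, with a normal p and Benjamini-Hochberg adjustment over 20653 genes. The same dispersion gave the standard errors of all genotype means. The standard error that this dispersion gave for heterozygous versus wildtype embryos was 1.00 times the deposited one (median). DESeq2, as the authors used it, draws dispersions toward a trend, so the implied variation between embryos is partly shared between genes. The derivation was run on simulated counts with the dispersions taken as known. That run checks its algebra and cannot check the dispersions or the fit. Intervals are 95%. The p-values set each difference against a single fitted dispersion per gene, and they do not measure the spread seen within each genotype. Exon lengths, positions and overlaps came from GENCODE M21 (GRCm38), where all 40 members were found by Ensembl identifier. Python 3.11.15, pandas 2.3.3, NumPy 2.4.6, SciPy 1.17.1 and matplotlib 3.10.9 were used.

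The members, the tissue classes and the lists of partners and markers were chosen with earlier results of these data known. All 40 members are named, and 3 other genes that match the symbol pattern are not reported here. Full statistics are given for members with an adjusted p under 0.05 against wildtype or heterozygous embryos and for the member with the highest mean count of each class. Of partners and markers, those named had an adjusted p under 0.05 and a log2 fold change beyond 1 in either direction, apart from *Unc80*, which was named after its value was seen to complete its complex, and *Chdh*, *A430018G15Rik*, *Gm37759* and *Pklr*, which overlap members. *Fam155b*, *Drgx* and *Synb* were not analysed here. Other scalings, filters, thresholds and reference distributions were tried.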

Additional observations from a re-analysis of the deposited data

How the results depend on the processing

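Only the summaries of 2 comparisons were used, which limits the alternatives: no embryo could be left out in turn. No paired analysis was possible because the tables hold no values per embryo. When a t distribution (7 degrees of freedom) replaced the normal one, which ignores that the dispersions borrow from other genes, 0 members, 0 neuronal, sensory, skeletal or shared members, 0 partners and 0 of all 17477 genes passed in KO versus wildtype embryos, and 0 members in KO versus heterozygous embryos. The lowest adjusted p over all genes was then 0.131 (KO versus wildtype) and 0.144 (KO versus heterozygous), and 19 and 23 members had an unadjusted p under 0.05. With a log2 fold change beyond 1 also asked for, 11 members (10 lower, 1 higher) passed against wildtype and 11 (10 lower) against heterozygous embryos, with 8 neuronal, 0 skeletal and 1 shared member and 9 partners. A standard error that adds both deposited variances left 1 member in KO versus heterozygous embryos. It keeps the variance of the shared wildtype embryos, which cancel from this difference, and so is too large. Scaling to summed counts gave 27 members against wildtype, with 2 cardiac and 2 skeletal ones. It brought 8 members past the threshold, all lower: *Cacna1c*, *Cacna2d2*, *Cacnb3*, *Cacng1*, *Cacng5*, *Cacng7*, *Hcn4* and *Scn2b*. Adjusting over every gene gave 18 members, without *Cacng8*, and over genes with a mean of at least 10 it left each call of a named member as it was. Only the scaling altered a fold change, by the same amount for every gene, so these alternatives did not put the directions to a test. In heterozygous versus wildtype embryos 0 members passed under each alternative tried. Members with means under 30, such as *Scn11a*, *Scn4a*, *Cacng3* and *Cacng6*, had intervals over 2 log2 units wide, so changes of moderate size in them were not detectable at this depth.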
